A study of Drosophila melanogaster with 2 samples.

Results

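The 8 mirtrons mir-1003, mir-1004, mir-1005, mir-1006, mir-1007, mir-1008, mir-1010 and mir-1012 were followed by name through small RNA counts of the Drosophila melanogaster central nervous system (CNS). They are 8 of the 174 annotated hairpins with reads in the study, and all 8 had reads in both libraries. The study sequenced 1 larval and 1 adult library, both from the isogenic strain w[1118] Iso31 raised at 24 C, with no other genotype or treatment. The larval library came from ventral ganglia with optic lobes, without eye discs, of wandering larvae of the last instar. The adult library came from brains with antennal lobes, 3 to 5 days after eclosion. Each library pooled tissue of about 100 animals of both sexes. Stage and dissected region changed together, so their parts in a difference cannot be told apart. There were no replicates, no test between the stages was possible, and every interval below covers the counting error of reads only.

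Most animal miRNA hairpins are cut from a longer primary transcript by the nuclease Drosha. Mirtrons leave out that step: the spliceosome removes a short intron, the lariat is debranched, and the freed intron folds into a hairpin that Dicer cuts into the mature RNA. The 3' arm of such a hairpin ends at the splice acceptor, and the 5' arm begins at the splice donor. In flies the ends of mirtron hairpins are known to be lengthened by the uridylyltransferase Tailor.

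In the annotation of assembly BDGP6 the hairpin of each of the 8 spanned an intron of a protein-coding gene from its first to its last base. Of the 157 annotated hairpins outside this list and the list of further mirtrons given below, 7 spanned a whole intron, 55 lay inside a longer intron and 95 lay in no intron on their strand. The 8 hairpins were 56 to 71 bases long, with a median of 62.5, against a median of 94 for those 157.

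The host genes differ in what they encode. mir-1010 (3R, 22292879 to 22292949, plus strand) is an intron of SKIP, whose product binds a Shal potassium channel. It was the shortest of the 24 distinct introns of SKIP, whose median intron is 1212 bases long. mir-1012 (3R, 26861349 to 26861407, minus strand) is an intron of Lerp, a receptor that sorts lysosomal enzymes. mir-1006 (2L, 16724795 to 16724858, minus strand) is an intron of VhaSFD, a subunit of the vacuolar proton pump. mir-1005 (2L, 4343696 to 4343756, plus strand) and mir-1007 (X, 21296385 to 21296449, minus strand) are introns of genes for ATP-binding cassette transporters, Atet and Abca3. mir-1003 (3R, 24658605 to 24658660, plus strand) lies in CG6695, mir-1004 (2L, 3767621 to 3767688, plus strand) in CG43707 and mir-1008 (2R, 10885533 to 10885589, plus strand) in CG18004.

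For 6 of the 8 every annotated transcript of the host carried the intron in exactly this form. In SKIP 6 of 7 transcripts did, and no intron of the other transcript overlapped the hairpin. In CG18004, the host of mir-1008, 2 of 3 transcripts did, and the other one ended the intron 18 bases further downstream. Coding sequence lay on both sides of the hairpin in all transcripts that carried such an intron, apart from 1 of the 2 transcripts of CG6695.

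The mirtrons were minor miRNAs of the CNS, and mir-1010 was by far the most abundant of them in both libraries. Together they took 2167 of 822500 larval hairpin reads, 0.263% (95% interval 0.253 to 0.275, Clopper-Pearson), and 6447 of 1665159 adult reads, 0.387% (0.378 to 0.397). mir-1010 alone supplied 68.3% of the larval and 62.2% of the adult mirtron reads. It had 1480 larval and 4010 adult reads, or 1799 and 2408 RPM (reads per 1000000 hairpin reads of the library), and ranked 36th and 34th among the hairpins.

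The next 3 members stood well below it in both libraries. mir-1012 had 163 larval and 969 adult reads, 198 and 582 RPM. mir-1004 had 190 and 687 reads, 231 and 413 RPM. mir-1003 had 160 and 350 reads, 195 and 210 RPM. mir-1012, mir-1004, mir-1003 and mir-1008, with 130 larval reads or 158 RPM, had larval levels close together, the exact Poisson interval of each overlapping that of its neighbour in the order. In the adult library the intervals of mir-1010, mir-1012, mir-1004, mir-1003 and mir-1006 followed each other without overlap.

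The lowest levels rested on few larval reads. mir-1006 had 26 larval and 216 adult reads, 31.6 and 130 RPM. mir-1008 was the single member with fewer adult than larval reads, 97 reads or 58.3 RPM in the adult library. mir-1007 had 8 larval and 69 adult reads, and mir-1005 had 10 and 49, so that their larval levels of 9.73 RPM (4.20 to 19.2) and 12.2 RPM (5.83 to 22.4) were poorly fixed. The intervals of mir-1006, mir-1005 and mir-1007 in the larval library, and those of mir-1008, mir-1007 and mir-1005 in the adult library, overlapped between neighbours in the order.

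**Figure D1:**
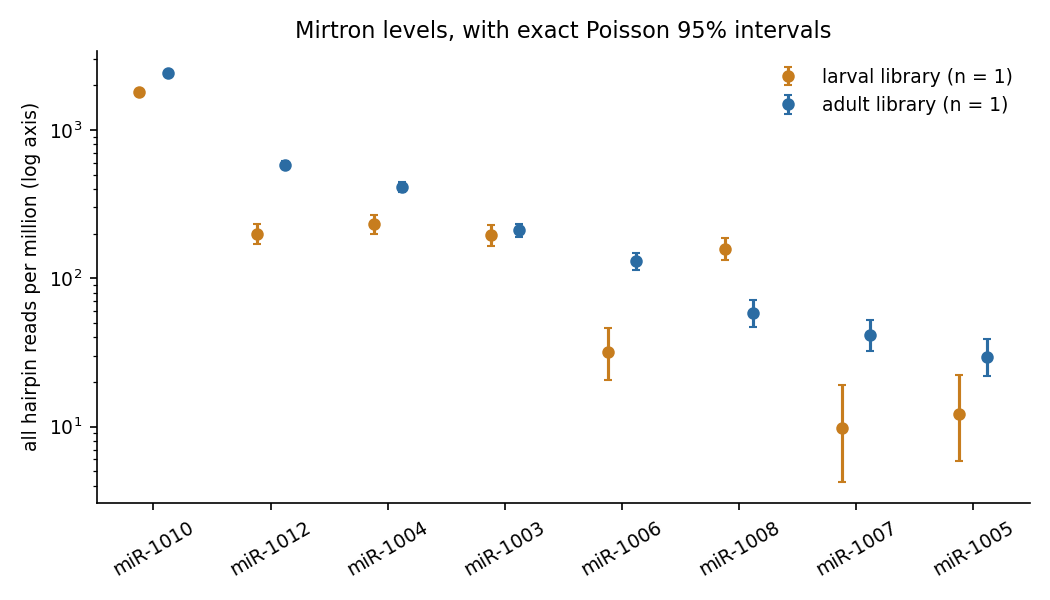
Level of each mirtron in reads per 1000000 hairpin reads (log axis) in the larval and the adult library, with exact Poisson 95% intervals and 1 library per stage. mir-1010 lies at 1799 and 2408 RPM, far above the rest, and mir-1008 is the single member whose adult point lies under the larval one.

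The design asks how the CNS miRNAs differ between larva and adult, and 7 of the 8 mirtrons had more RPM in the adult library. Among all 114 hairpins compared by the rule that follows, 65 had a log2 ratio of adult over larval levels above 0. A hairpin was called higher in a library when its RPM was at least 2 times that of the other library and the exact conditional binomial 95% interval of the ratio left out 1, among hairpins with at least 20 reads in all and 10 RPM in either library. By this rule 4 of 8 mirtrons were higher in the adult library, where 40.4% of all 114 compared hairpins were. By the same rule 1 was higher in the larval library, where 24.6% of all compared hairpins were, and 3 met neither call. The median log2 ratio of adult over larval levels was 1.03 for the mirtrons and 0.47 for all compared hairpins. The count of 4 of 8 is near the share among all hairpins. With totals that leave out the 10 most abundant hairpins of either library, 14 distinct ones, 40 hairpins met the adult call and 41 the larval call, against 46 and 28 before, and the adult count of the mirtrons was 3.

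The largest ratios among the adult calls belonged to mir-1007 and mir-1006, which had few larval reads. The ratio of adult over larval RPM was 4.26 for mir-1007 (95% interval 2.05 to 10.3) and 4.10 for mir-1006 (2.73 to 6.42). It was 2.94 for mir-1012 (2.49 to 3.49) and 2.42 for mir-1005 (1.21 to 5.36). mir-1007 reached the minimum of 10 RPM through the adult library alone. The call of mir-1005 was lost, at 1.69-fold (0.844 to 3.74), under those totals, which shift every log2 ratio by -0.52.

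mir-1004, mir-1010 and mir-1003 met neither call. The ratio was 1.79 for mir-1004 (1.52 to 2.11) and 1.34 for mir-1010 (1.26 to 1.42). mir-1003 had a ratio of 1.08 (0.894 to 1.31), and counting error alone covers equal levels. With those totals the ratios of mir-1003 and mir-1010 turned to 0.753 and 0.933, and with DESeq2 size factors that of mir-1003 was 0.976. The direction of mir-1003 and mir-1010 therefore depends on the scaling. mir-1008 was 2.71-fold higher in the larval library (2.07 to 3.57).

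Counting mature reads alone, those of the 5' and 3' arms, altered the calls of a pair of members. Of the 7 mirtrons then past the minimum, 5 were called higher in the adult library and 0 in the larval library, against 40.2% and 25.9% of 112 hairpins. mir-1004 joined the adult calls with a ratio of 2.19 (1.68 to 2.88) from 70 larval and 310 adult mature reads. That call depends on the scaling, since its log2 ratio was 1.12. The shift of -0.15 with DESeq2 size factors takes it just under 2-fold. The shift of -0.52 without the most abundant hairpins takes it further under. mir-1007, called either way, had a ratio of 7.66 (2.84 to 29.0) from 4 and 62 mature reads. With mature reads too it reached the minimum of 10 RPM through the adult library alone. mir-1008 was left with 2 larval and 12 adult mature reads, 2.43 and 7.21 RPM, under the minimum. Its larval call rested on reads counted for neither mature arm, and whether these include 5' reads is not known.

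**Figure D2:**
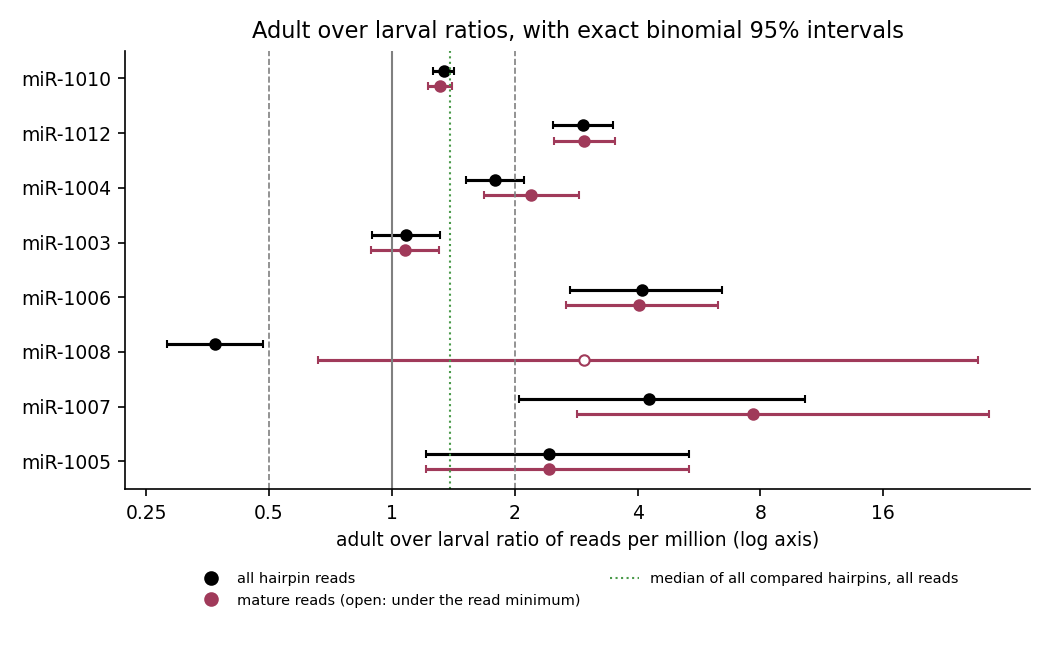
Adult over larval ratio of reads per 1000000 hairpin reads (log axis) for each mirtron, with exact binomial 95% intervals, from all hairpin reads (black) and from mature reads (red). Dashed lines mark ratios of 0.5 and 2 and the dotted line the median of all compared hairpins. mir-1008 lies at 0.369 with all reads and has an open point at 2.96 with its 14 mature reads, which are under the read minimum.

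The deposited columns divide each hairpin's reads into the 5' arm, the 3' arm and other reads of the hairpin, and count separately the arm reads equal to the annotated mature form, called exact here. The remaining arm reads are called variant. The files do not say which changes of length or sequence the variants carry. All arm reads of the 8 mirtrons fitted no other hairpin.

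Most mature reads of the mirtrons came from the 3' arm. This arm held most mature reads in all 5 members with at least 20 mature reads in the larval library and in all 7 such members in the adult library. Among hairpins on neither mirtron list the 3' arm held most reads in 53.7% of 82 in the larval and 53.8% of 91 in the adult library. In mir-1004, mir-1005, mir-1007 and mir-1008 no 5' read was counted in either library. For mir-1004 the 0 of 310 adult mature reads allow a 5' share of up to 0.968%, and for mir-1007 the 0 of 62 allow up to 4.84%. These limits hold only if 5' reads of these members were counted as such. Whether they could instead stand among the other reads is not known from the sources.

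mir-1003 and mir-1006 had 5' reads in the larval library alone. They were 5 of 160 mature reads for mir-1003, 3.13% (95% interval 1.02 to 7.14), and 1 of 26 for mir-1006. In the adult library none of the 348 mature reads of mir-1003 and none of the 212 of mir-1006 came from the 5' arm. The 95% intervals of these adult shares reach 1.05% and 1.72%. The larval interval of mir-1006 was 0.0973% to 19.6%. In both members the larval and adult intervals overlap.

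mir-1012 was the member with the largest share of 5' reads. The 5' arm gave 33 of 161 larval mature reads, 20.5% (14.5 to 27.6), and 233 of 963 adult ones, 24.2% (21.5 to 27.0). Both arms had more RPM in the adult library, with a ratio of 3.49 (2.42 to 5.19) for the 5' arm and 2.82 (2.33 to 3.43) for the 3' arm.

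In mir-1010 the 5' arm had more RPM in the larval library and the 3' arm in the adult library. Its 5' arm had 122 larval and 34 adult reads, 148 and 20.4 RPM, and was 7.26-fold higher in the larval library (4.93 to 11.0). Its 3' arm had 1057 and 3095 reads, 1285 and 1859 RPM, an adult over larval ratio of 1.45 (1.35 to 1.55), or 0.53 on the log2 scale. Leaving the most abundant hairpins out of the totals, a shift of -0.52, brings this 3' ratio close to 1 and leaves the 5' arm higher in the larval library. The 5' share was 10.3% (8.67 to 12.2) in the larval and 1.09% (0.754 to 1.52) in the adult library. These intervals do not overlap, but the step of -9.26 percentage points was just short of the 10 points set for calling a change of arm usage. None of the 5 mirtrons compared met that call, which 8.14% of 86 hairpins met toward the 5' arm and 11.6% toward the 3' arm in the adult library.

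None of the 5' reads of any of the 8 was exact. For mir-1012 this was 0 of 233 adult 5' reads, with a 95% interval up to 1.57%. For mir-1010 it was 0 of 122 larval ones, up to 2.98%. Among all hairpins with 5' reads, 82 of 101 in the larval and 95 of 114 in the adult library had exact ones. The sources used here do not say whether the annotation behind the counts defines a 5' form for these mirtrons.

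**Figure D3:**
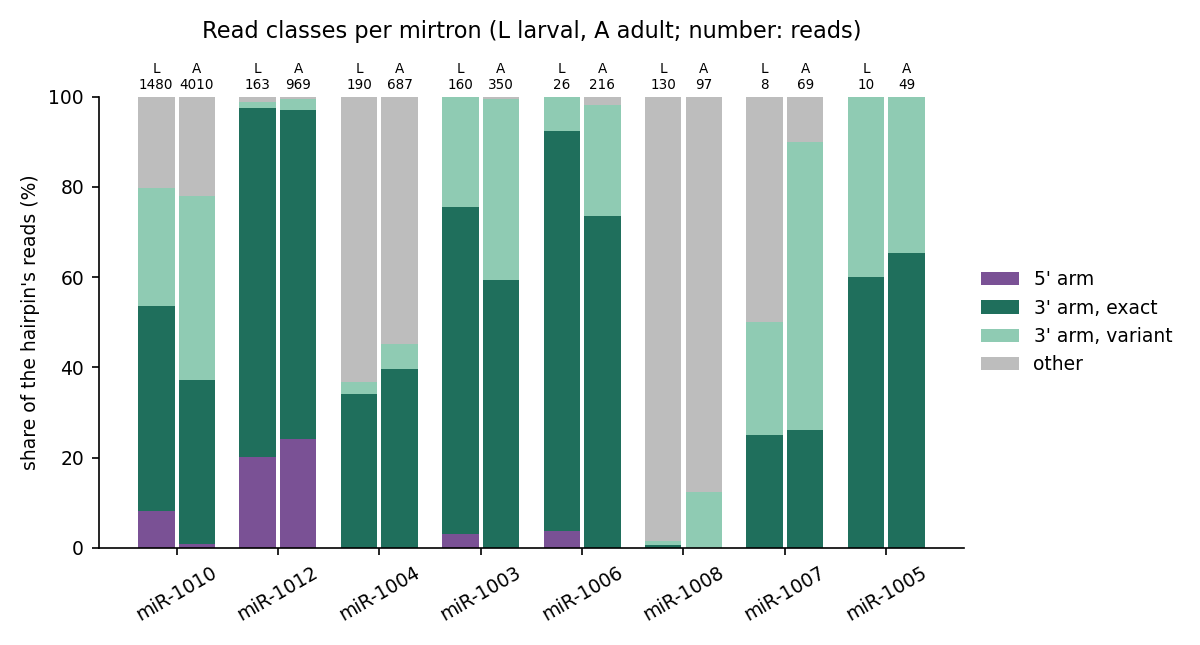
Share of each mirtron's reads (%) in the 5' arm, exact 3' reads, variant 3' reads and other reads, for the larval (L) and the adult (A) library, with the number of reads above each bar. The 3' classes fill most of the bar in 6 members in the adult library, while other reads take 54.9% of mir-1004 and 87.6% of mir-1008 there.

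Other reads, those counted for neither mature arm, were the main class in a pair of mirtrons. No 5' read was counted for either of them, and whether their other reads include 5' reads is not known. In mir-1008 this class held 128 of 130 reads in the larval library, 98.5% (94.6 to 99.8), and 85 of 97 in the adult one, 87.6% (79.4 to 93.4). In mir-1004 it held 120 of 190 larval reads, 63.2% (55.9 to 70.0), and in the adult 377 of 687, 54.9% (51.1 to 58.6). Shares over 50% were uncommon among hairpins on neither mirtron list, at 4.71% of 85 in the larval and 4.26% of 94 in the adult library. One of these was mir-2535b, which also spans a whole intron, with 64.8% of larval and 57.1% of adult reads in this class.

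mir-1010 had an intermediate share of other reads, 20.3% (18.3 to 22.5) in the larval and 22.0% (20.7 to 23.3) in the adult library. In mir-1012, mir-1003 and mir-1006 the share was under 2% in both libraries, and mir-1005 had no such reads. mir-1007 had 4 of 8 larval and 7 of 69 adult reads in this class. The step of mir-1008 met the rule for a change, at least 10 percentage points with intervals apart, toward fewer other reads in the adult library, as did 2.25% of 89 hairpins. The opposite call was met by 6.74% of those hairpins and by 0 of the 6 mirtrons compared.

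The other reads of mir-1008 carried its larval call. Other reads stood at 156 larval and 51.0 adult RPM, a larval over adult ratio of 3.05 (2.30 to 4.06). For its mature reads the adult over larval ratio was 2.96 with an interval of 0.660 to 27.3, which covers either direction. In mir-1004 both classes had more RPM in the adult library, with a ratio of 1.55 (1.26 to 1.92) for other reads beside 2.19 for 3' reads.

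**Figure D4:**
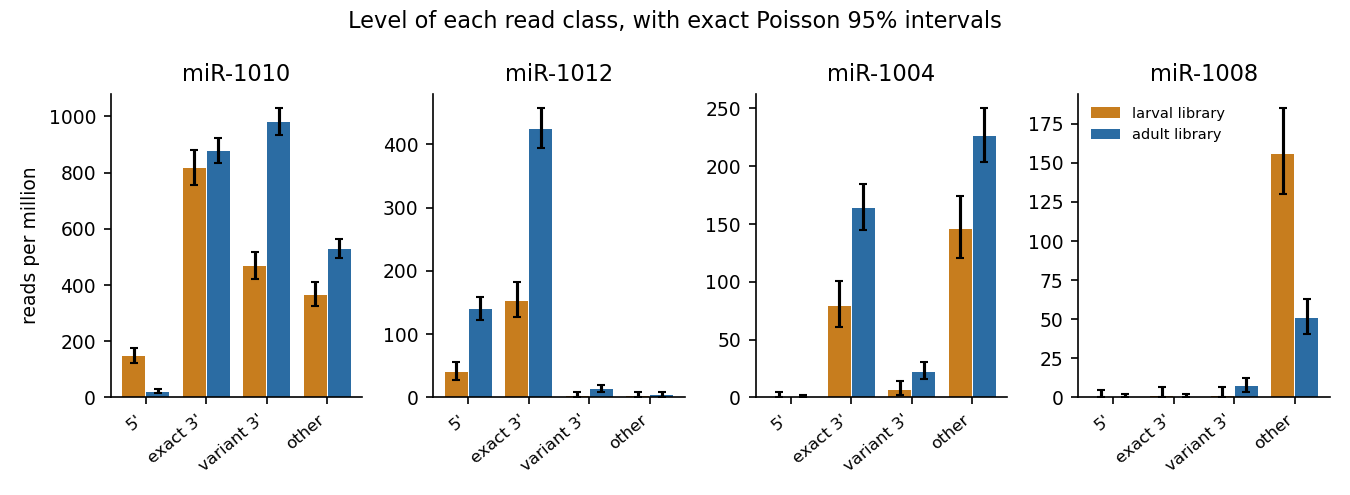
Reads per 1000000 hairpin reads in each read class of mir-1010, mir-1012, mir-1004 and mir-1008, with larval and adult bars side by side and exact Poisson 95% intervals. In mir-1010 the larval bar is the taller one for the 5' arm (148 against 20.4 RPM) and the adult bar for variant 3' reads (981 against 468 RPM); in mir-1008 nearly all reads are other reads.

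The mirtrons differed widely in how far their 3' reads kept to the annotated form. mir-1012 was the most exact, with 126 of 128 larval 3' reads, 98.4% (94.5 to 99.8), and 708 of 730 adult ones, 97.0% (95.5 to 98.1). mir-1004 followed with 92.9% (84.1 to 97.6) and 88.1% (83.9 to 91.5). At the other end, 18 of 62 adult 3' reads of mir-1007 were exact, 29.0% (18.2 to 41.9). For mir-1008 it was 0 of 12 adult 3' reads, under the 20 reads set for a share. Its interval reaches 26.5% and overlaps that of mir-1007. In mir-1005 32 of 49 adult 3' reads were exact, 65.3% (50.4 to 78.3).

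In the abundant mir-1010 and in mir-1003 the exact share was lower in the adult library. For mir-1010 it was 63.6% (60.6 to 66.5) of 1057 larval and 47.2% (45.4 to 49.0) of 3095 adult 3' reads, so that variants made up the majority in the adult. For mir-1003 it was 74.8% (67.2 to 81.5) of 155 larval and 59.8% (54.4 to 65.0) of 348 adult 3' reads. mir-1006 had 92.0% (74.0 to 99.0) of 25 and 75.0% (68.6 to 80.7) of 212, with intervals that overlap.

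Of the 5 mirtrons with at least 20 3' reads in each library, all had a lower exact share in the adult library, with a median step of -15.1 percentage points, and 2 met the call of at least 10 points with intervals apart. Over all 62 such hairpins 44 were lower, the median step was -2.93 points, and 16.1% met the call in this direction and 8.06% in the opposite one. A lower exact share in the adult library was thus the majority pattern of all hairpins, mirtrons or not.

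Splitting the levels by class shows where the adult reads of these members lay. The exact 3' reads of mir-1010 stood at 817 and 877 RPM, a ratio of 1.07 (0.979 to 1.18) whose interval includes 1. Its variant 3' reads stood at 468 and 981 RPM, a ratio of 2.10 (1.87 to 2.35). For mir-1003 the ratio was 0.886 (0.702 to 1.12) for exact and 1.77 (1.24 to 2.60) for variant 3' reads. These ratios depend on the scaling. The log2 shift of -0.52 without the most abundant hairpins turns the exact reads of mir-1010 lower in the adult library. Its variant reads then stay higher there, by less than 2-fold, and the variant interval of mir-1003 covers 1. The gap between exact and variant reads within a hairpin does not depend on the scaling. For mir-1006 exact reads were 3.41-fold higher (2.20 to 5.54), while its variants had 2 larval and 53 adult reads, a ratio of 13.1 with an interval of 3.45 to 111. In mir-1012, with few 3' variants, the exact 3' reads stood at 153 and 425 RPM, a ratio of 2.78 (2.29 to 3.38), and the 5' reads, none of them exact, at 40.1 and 140 RPM.

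**Figure D5:**
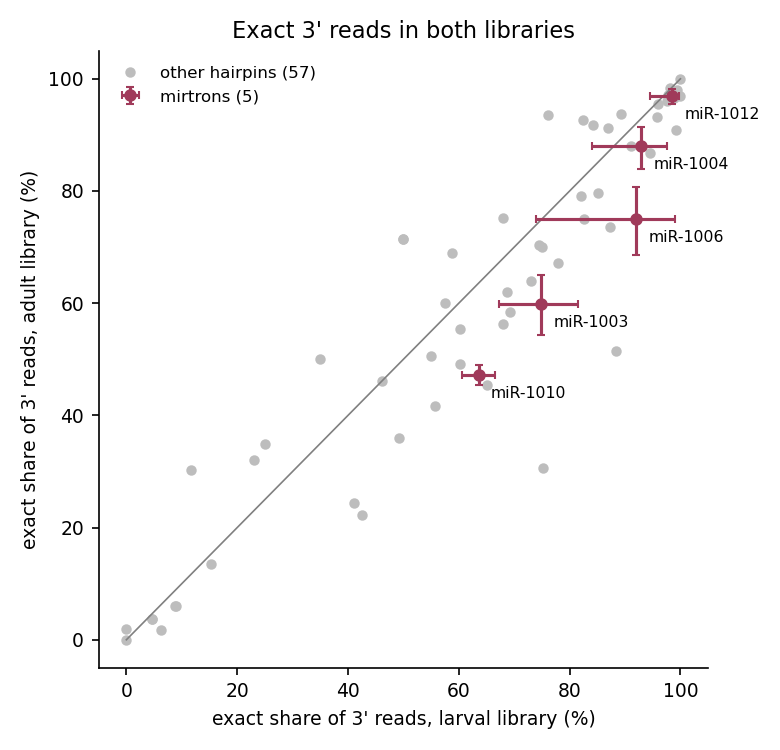
Exact share of 3' reads (%) in the larval (x axis) and the adult library (y axis) for the 62 hairpins with at least 20 3' reads in each, with 5 mirtrons in red and exact binomial 95% intervals. The 5 mirtrons in red lie under the line of equal shares, mir-1010 at 63.6% and 47.2% and mir-1012 at 98.4% and 97.0%. The grey points include the further mirtrons mir-1009, which lies above the line, and mir-1017, which lies under it.

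A list of further mirtrons, mir-1009, mir-1011, mir-1013, mir-1014, mir-1015 and mir-1016, together with mir-1017, whose hairpin is followed by a tail that is trimmed off, was examined alongside. Of these 7, 5 had reads and 3 passed the minimum, and all 3 met the adult call, which 40.4% of all 114 compared hairpins met. The ratio was 3.05 for mir-1009 (2.05 to 4.68) from 29 larval and 179 adult reads. It was 3.09 for mir-1013 (2.0 to 4.97) from 24 and 150 reads, and 3.24 for mir-1017 (2.53 to 4.21) from 73 and 479. In the annotation the hairpin of mir-1017 begins with an intron of nAChRalpha2, a subunit of a nicotinic acetylcholine receptor, and ends 98 bases before the end of that intron. mir-1013, an intron of the Hippo pathway kinase gene wts, had 23 exact reads among 132 adult 3' reads, 17.4%, a lower share than any of the 7 mirtrons above with at least 20 such reads, though its interval overlaps that of mir-1007. The exact share of 3' reads of mir-1009 was 89.3% (71.8 to 97.7) in the larval and 93.8% (89.1 to 96.8) in the adult library, a step opposite to that of the 5 mirtrons above, with intervals that overlap. For mir-1017 it was 60.3% (48.1 to 71.5) and 55.4% (50.9 to 60.0), also with overlapping intervals.

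Of the 7 hairpins on neither list that spanned a whole intron, 6 had at most 14 reads in any library. The exception, mir-2535b (X, 21298275 to 21298345, minus strand), is an intron of Abca3 like mir-1007, 1825 bases from it, and was named after its position and values were seen. It had 54 larval and 319 adult reads, 65.7 and 192 RPM, a ratio of 2.92 (2.18 to 3.97), beside 4.26 (2.05 to 10.3) for mir-1007. The intervals of these neighbours overlap.

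By level in the 2 libraries, the hairpins most like the 3 mirtrons with most reads were found among 103 compared hairpins on neither list. For mir-1010 this was mir-2a-2, with 2097 larval and 1839 adult RPM, at a distance of 0.45 on the log2 scale. For mir-1012 it was mir-956 with 146 and 709 RPM (distance 0.52), and for mir-1004 it was mir-929 with 176 and 341 RPM (distance 0.48).

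Markers listed for neurons, muscle, photoreceptors, testis and ovary differed between the libraries. mir-124, the neuronal marker, had 2564 larval and 1603 adult RPM. Of the muscle markers, mir-1 had 47.4 larval and 141 adult RPM, while mir-133 had 518 and 13002 RPM. These levels are far apart, so an amount of muscle cannot be read from them. The photoreceptor marker mir-210 stood at 99.7 and 17586 RPM. Of 10 testis markers mir-977 and mir-978 were listed in neither library, while 6 had larval and 7 adult reads, summing to 136 and 33.0 RPM, of which mir-982 gave most. The ovary marker mir-318 had 4.86 and 22.8 RPM. The part of these tissues, or of a different mix of cell types, in the mirtron ratios was not tested. In such bulk samples fewer cells of a type and less RNA per cell cannot be told apart.

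The authors' deposited table compares the libraries by Kal's Z-test on read proportions. In it the Bonferroni p-value was under 0.05 for 6 of the 8 mirtrons and for 94 of all 174 hairpins. The exceptions were mir-1003 and mir-1005, both with a Bonferroni p-value of 1 in the authors' deposited table. That test is on the reads of 1 library per stage, and so compares these libraries and not the stages.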

How the data were processed

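The data are small RNA counts from 1 library per stage, prepared from 1 ug of RNA with a TruSeq kit, per the labels' protocols. The authors deposited counts of trimmed reads per annotated hairpin, by arm and read class, per the file headers. Per the submitters' processing notes, CASAVA 1.8 and build dm3 were used. No source used here names the aligner, the counter with its mismatch and length allowances, or the release of the hairpin annotation. A comparison by Kal's Z-test was also deposited by the authors, with its p-value, a Bonferroni p-value and a signed fold score, which set no call here. The lists of candidate hairpins were not used here.

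RPM were computed over all hairpin reads, 822500 larval and 1665159 adult, so that 1 read is worth 1.22 and 0.601 RPM. A hairpin not listed in a library was taken as 0 reads. Intervals are exact at 95% (Poisson for levels, Clopper-Pearson for shares, conditional binomial for ratios, scipy 1.17.1). Reads without molecular identifiers are not independent molecules, so intervals, also those for a count of 0, cover counting error only. Log2 ratios had 0.5 reads added. Shares needed 20 reads, and a step of 10 points with intervals apart was called. The interval calculation was tested on simulated Poisson counts, which hold counting error and no spread between libraries. Positions come from Ensembl release 115 (BDGP6) by hairpin name and were not mixed with dm3. Alternatives were mature reads, uniquely fitting reads, TMM (edgeR 4.0.16), DESeq2 1.42.0 size factors, totals that leave out the 10 most abundant hairpins of either library, no minimum, and a ratio of 1.5. All 8 members were named whatever their values. Members, lists and the calls on exact and other reads were chosen with earlier results of these data known.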

Additional observations from a re-analysis of the deposited data

How the results depend on the processing

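The count of mirtrons higher in the adult library was 4, and 3 to 5 over the alternatives run; the 3 came with totals that leave out the 10 most abundant hairpins. The count higher in the larval library, 1 with all reads, was 0 with mature reads over either total and with mature reads that fit 1 hairpin only, because mir-1008 then fell under the read minimum. The median log2 ratio of 1.03 was 0.97 with TMM factors, 0.88 with DESeq2 size factors and 0.51 with totals without the 10 most abundant hairpins. The median of all compared hairpins, 0.47 in the main setting, was 0.41, 0.32 and -0.05 with these scalings. With mature reads over all reads, over mature reads and uniquely fitting, the mirtron median was 1.22, 1.24 and 1.24. mir-1003 turned to 0.976 with DESeq2 size factors and to 0.753 with the totals without the most abundant hairpins, and mir-1010 to 0.933 with the latter, by the construction of that scaling. With a minimum of 10 mature reads the 3' arm held most reads in 6 of 6 larval and 8 of 8 adult members; among exact reads it did so by construction, since no exact 5' read was counted. Depth limits the ratios of mir-1007 and mir-1005 most, with 8 and 10 larval reads. No paired analysis was possible because each stage has 1 library.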
